A study of Sus scrofa with 4 samples.

Results

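The enzymes that write, maintain and remove DNA methylation were examined in sorted epidermal cells of the pig. The 10 genes are DNMT1, DNMT3A, DNMT3B, UHRF1, UHRF2, HELLS, TET1, TET2, TET3 and TDG, taken by name from a table of raw read counts. All 10 were found among its 29837 named genes, and all 10 passed the filter on low counts that left 15980 genes for testing. RNA came from 2 juvenile pigs, 88R and 95R, each of which gave 1 library of LGR5-high cells and 1 of LGR5-negative cells. The LGR5-high libraries (GFP-hi in the sample titles, LGR5-GFP+ in the labels) and the LGR5-negative libraries (GFP-neg, LGR5-GFP-) were both sorted from epidermis and hair of animals that carry H2B-GFP inserted in exon 1 of 1 LGR5 allele. LGR5 marks hair follicle stem cells and potentiates WNT signalling when R-spondin binds it. GFP fused to a histone is lost by dilution as cells divide, so the sort reports recent as well as present LGR5 activity. The line was made by nuclear transfer from clonal edited cell lines, and both populations therefore carry the same insertion. P-values rest on these 2 animals only. Without a term for the pig, they draw on the spread between libraries of the same population. With that term, they draw on how far the population difference varied between the pigs. Most of the tests used also borrow information on spread from other genes.

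Methylation of cytosine in CpG pairs silences genes and repeats and is copied at each cell division. DNMT3A and DNMT3B place new methyl groups, whereas DNMT1 copies the mark onto the new strand after replication. UHRF1 recognises the hemimethylated DNA and recruits DNMT1, UHRF2 is its close relative, and HELLS is a remodeller that opens nucleosomes for the methyltransferases. TET1, TET2 and TET3 oxidise 5-methylcytosine to 5-hydroxymethylcytosine and further forms, and TDG cuts out the most oxidised ones so that repair can restore an unmethylated base. In epidermis, DNMT1 and UHRF1 are known for keeping progenitor cells undifferentiated, and DNMT3A and DNMT3B for acting at the enhancers of epidermal stem cells.

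The libraries held between 30696803 and 32463362 counts on named genes. As a check of the sort labels, LGR5 itself was counted 4551 (88R) and 6224 (95R) times in LGR5-high, against 36 and 109 times in LGR5-negative. The keratinocyte genes KRT5 and TP63 were abundant in all 4 libraries (KRT5 had at least 789559 counts), while KRT1 and KRT10 of differentiated epidermis were lower in LGR5-high. These 4 keratinocyte genes together summed to 29650 and 30890 CPM in LGR5-high and to 92530 and 80100 CPM in LGR5-negative. KRT14, the other gene of the keratinocyte list, had no row under that symbol and is not in the sum. Levels are in CPM, the depth-scaled count of a gene after TMM normalization (trimmed mean of M-values, which aligns the bulk of genes between libraries), given as mean ± SD over the 2 pigs. A count of 3, taken as the smallest measurable signal, was worth between 0.0873 and 0.105 CPM. The bulk values cannot tell fewer cells of a type from less RNA per cell. CPM is not corrected for gene length, so levels are compared between populations and never between genes.

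By edgeR's quasi-likelihood test (Benjamini-Hochberg adjusted over all tested genes), 2 of the 10 genes were higher in LGR5-high (TET1 and UHRF1), 3 were lower (TET2, TET3 and TDG), and 5 were not called (DNMT1, DNMT3A, DNMT3B, UHRF2 and HELLS). The background is high, since 22.7% of all tested genes were called higher and 22.0% lower in this comparison. The median log2 fold change of the 10 genes was -0.17, beside 0.02 for all tested genes. When the pig was entered as a replicate block, which the shared animals justify, DNMT3A and HELLS were called higher as well in edgeR but not in DESeq2, giving 4 higher and 3 lower genes, where 28.5% and 27.2% of all tested genes were called in those directions. When libraries were scaled by library size only, the split became 4 higher (TET1, UHRF1, DNMT3A and HELLS) and 1 lower (TET3). That scaling moved the midpoint of the log2 fold changes over all tested genes from 0.02 to 0.24, and upper quartile scaling moved it to 0.11, so small changes are relative to these medians. The share of higher genes among all calls went from 50.9% to 70.2% with library size only.

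In CPM, all 10 genes had LGR5-high libraries that did not overlap the LGR5-negative libraries, 4 above and 6 below. With 2 libraries on each side this was common, as 39.2% of all tested genes lay wholly above and 37.4% wholly below. The plot of levels by library shows the direction of each gene in both pigs.

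**Figure D1:**
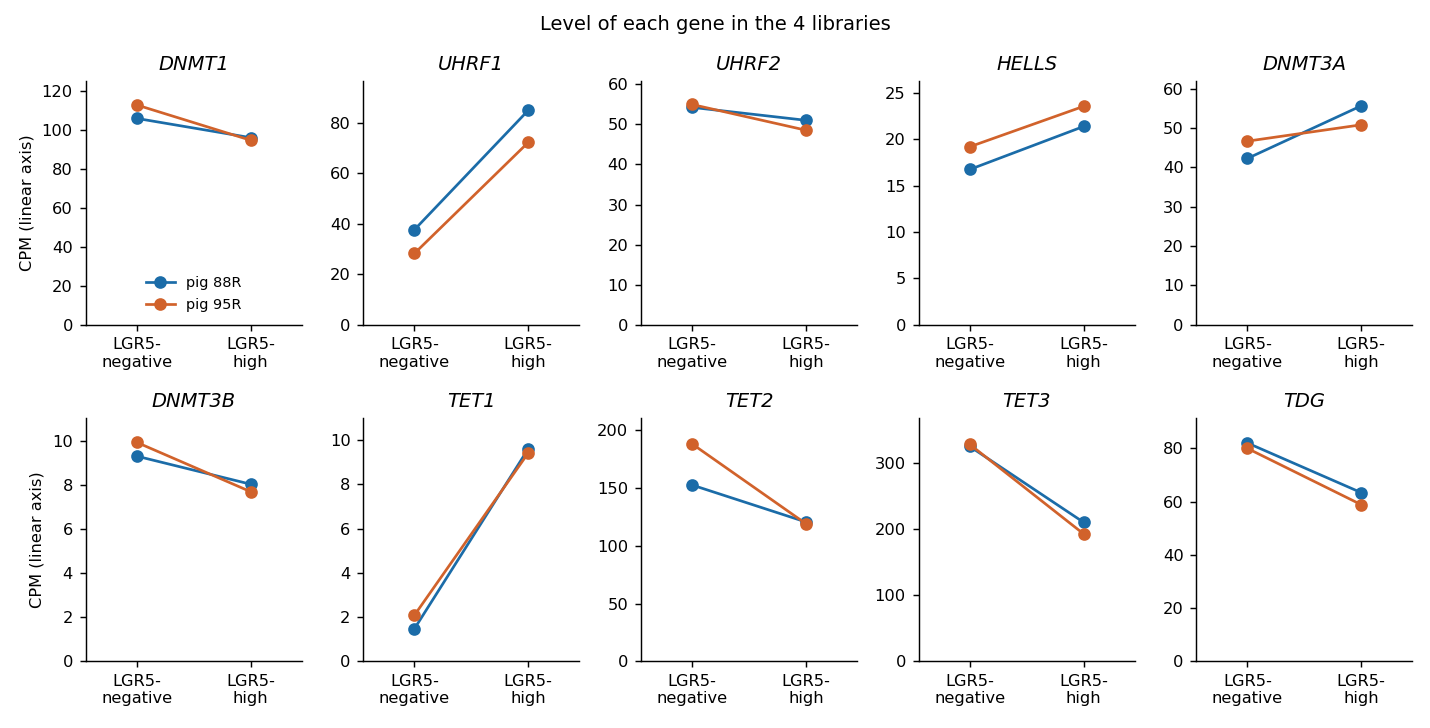
CPM (linear axis from 0) of each of the 10 genes in the LGR5-negative and LGR5-high libraries, with a line joining the libraries of 1 pig. UHRF1 and TET1 rose in both pigs, TET2, TET3 and TDG fell in both, and the other 5 genes were not called.

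UHRF1 had the largest difference in the maintenance group. Its level in LGR5-high was 84.9 CPM for pig 88R and 72.2 CPM for pig 95R, and it was 37.6 and 28.2 CPM in LGR5-negative. The LGR5-high libraries were therefore well above the LGR5-negative libraries in both animals, with pig 88R higher than pig 95R in each population. The means were 78.6 ± 8.99 and 32.9 ± 6.64 CPM (SD, n = 2 pigs), a 2.39-fold difference. The log2 fold change was 1.26 (standard error 0.164, 95% interval 0.85 to 1.66), with edgeR quasi-likelihood adjusted p = 0.00223. The pigs taken singly gave 1.17 (88R) and 1.35 (95R). The call was kept in 13 of 14 alternatives and lost in the per-gene test on log2 CPM without moderation (adjusted p = 0.102).

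UHRF2, which has the same domain layout as UHRF1 but does not replace it in maintenance, did not show this pattern. It had 51.0 and 48.5 CPM in LGR5-high against 54.2 and 55.0 CPM in LGR5-negative. The log2 fold change was -0.13 (95% interval -0.35 to 0.08, edgeR quasi-likelihood adjusted p = 0.253), and it changed sign to 0.09 with library size only. Within a library, where scaling plays no part, there were 166 and 149 UHRF1 counts per 100 UHRF2 counts in LGR5-high, and 69.3 and 51.4 in LGR5-negative. This ratio was 1.40 ± 0.192 log2 units higher in LGR5-high (mean ± SD over the 2 pigs).

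DNMT1, the maintenance methyltransferase that UHRF1 recruits, was close to level. Its values were 96.0 and 94.7 CPM in LGR5-high and 106 and 113 CPM in LGR5-negative. The CPM was lower in LGR5-high in both pigs, but the raw counts went in opposite directions, with 3301 against 3017 in pig 88R and 3128 against 3409 in pig 95R. The log2 fold change of -0.20 (standard error 0.0778, 95% interval -0.39 to -0.01) had an unadjusted p of 0.0458 and did not pass adjustment over all genes (edgeR quasi-likelihood adjusted p = 0.0875). With library size only it was 0.03, so no direction is given for DNMT1. Counted against DNMT1 in the same library, UHRF1 had 88.5 and 76.3 counts per 100 in LGR5-high, and 35.5 and 25.0 in LGR5-negative. UHRF1 transcripts thus differed between the populations where DNMT1 transcripts hardly did, by 1.46 ± 0.207 log2 units in this ratio.

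HELLS lay between these genes. It had 21.4 and 23.6 CPM in LGR5-high, and 16.7 and 19.2 CPM in LGR5-negative. Its log2 fold change was 0.32 (standard error 0.131), and the pigs taken singly gave 0.35 (88R) and 0.29 (95R). It was not called without the block (edgeR quasi-likelihood adjusted p = 0.0942) and was called with it (log2 fold change 0.32, adjusted p = 0.0343), while DESeq2 with the block did not call it (adjusted p = 0.232). In each population pig 95R was the higher animal.

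Neither de novo methyltransferase was called without the block. DNMT3A had 55.7 and 50.8 CPM in LGR5-high, and 42.3 and 46.7 CPM in LGR5-negative. Its log2 fold change was 0.26 (standard error 0.102), and pig 88R contributed most of it, with 0.40 against 0.12 in pig 95R. DNMT3A was not called without the block (edgeR quasi-likelihood adjusted p = 0.0867) and passed narrowly with it (adjusted p = 0.0464), but not in DESeq2 with the block (adjusted p = 0.212). DNMT3B, the less abundant of the pair in counts, had between 255 and 301 counts per library. Its levels were 8.06 and 7.72 CPM in LGR5-high, and 9.33 and 9.96 CPM in LGR5-negative. The log2 fold change of DNMT3B was -0.29 (95% interval -0.67 to 0.09, edgeR quasi-likelihood adjusted p = 0.174), and it was not called in any of the 14 alternatives. Measured within each library, there were 691 and 659 DNMT3A counts per 100 DNMT3B counts in LGR5-high, and 453 and 469 in LGR5-negative. The balance of DNMT3A to DNMT3B was thereby 0.55 ± 0.0835 log2 units higher in LGR5-high, and the pigs taken singly gave 0.61 (88R) and 0.49 (95R). Such a ratio shows unequal change and does not say which of the genes moved.

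**Figure D2:**
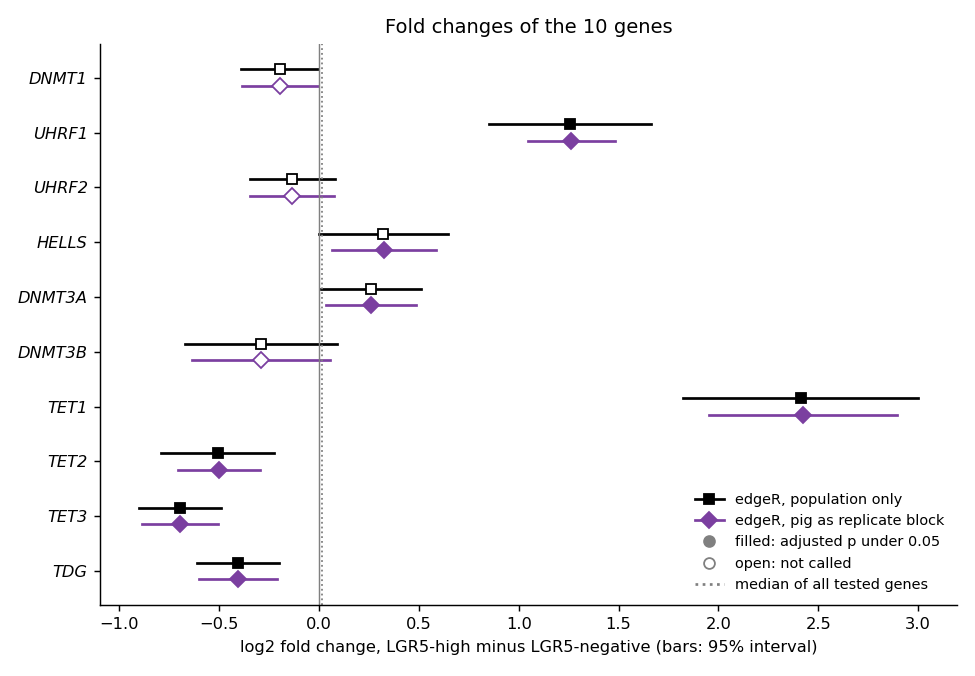
Log2 fold change of each gene, LGR5-high minus LGR5-negative, with 95% intervals, from edgeR without (black squares) and with (purple diamonds) the pig as replicate block. Filled symbols have an adjusted p under 0.05, and the block added calls for HELLS and DNMT3A in edgeR while leaving the estimates nearly in place.

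Among the TET dioxygenases, TET1 differed most and was the rarest by counts. In LGR5-high, TET1 was counted 330 times in pig 88R and 311 times in pig 95R, and in LGR5-negative 42 and 63 times. This amounted to 9.60 and 9.41 CPM in LGR5-high, and 1.47 and 2.08 CPM in LGR5-negative, so the populations were far apart and the LGR5-high libraries nearly equal. All 4 counts were above the floor of 3 counts. The fold change was 5.32 (log2 fold change 2.41, standard error 0.238, 95% interval 1.82 to 3.001), with edgeR quasi-likelihood adjusted p = 0.000827. The single animals gave 2.65 (88R) and 2.14 (95R), and the replicate block gave 2.42. Of all tested genes, TET1 stood at the 93.2 percentile of log2 fold changes, and UHRF1 at the 85.8 percentile. TET1 was called in 13 of 14 alternatives, the exception again being the unmoderated test on log2 CPM (adjusted p = 0.0587).

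TET3 and TET2 went the other way. TET3 had 210 and 193 CPM in LGR5-high, and 325 and 328 CPM in LGR5-negative, with the LGR5-negative libraries almost identical. Its log2 fold change was -0.70 (standard error 0.0823, edgeR quasi-likelihood adjusted p = 0.00154), and the pigs taken singly gave -0.63 (88R) and -0.77 (95R). TET3 was called lower in 13 of 14 alternatives, all but the unmoderated test on log2 CPM.

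TET2 had 121 and 119 CPM in LGR5-high, against 153 and 188 CPM in LGR5-negative. Most of the spread was thus between the LGR5-negative libraries. The log2 fold change was -0.51 (standard error 0.115, edgeR quasi-likelihood adjusted p = 0.0158), and the pigs taken singly gave -0.34 (88R) and -0.66 (95R). The call was lost without the LGR5-high library of pig 88R (adjusted p = 0.0599) or of pig 95R (adjusted p = 0.0786), and with library size only (log2 fold change -0.29, adjusted p = 0.0965).

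The opposite directions changed the make-up of the TET transcripts. TET1 gave 2.82% and 2.93% of the summed TET counts in LGR5-high, and 0.307% and 0.402% in LGR5-negative. TET3 gave 61.8% and 60.0% in LGR5-high, and 67.8% and 63.3% in LGR5-negative. TET1 therefore remained a small share of TET counts in both populations, although longer transcripts collect more reads and these shares are not shares of molecules. Per 100 TET3 counts there were 4.56 and 4.88 TET1 counts in LGR5-high, and 0.453 and 0.635 in LGR5-negative, a difference of 3.14 ± 0.276 log2 units (SD over the 2 pigs). An exact permutation test of such a ratio cannot go below p = 0.333 with 2 libraries against 2, and none was made.

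TDG, the glycosylase that acts on the products of the TET enzymes, followed TET2 and TET3 in direction. It had 63.4 and 58.8 CPM in LGR5-high, and 82.0 and 80.0 CPM in LGR5-negative. The log2 fold change was -0.41 (standard error 0.0835, edgeR quasi-likelihood adjusted p = 0.0113), and the pigs gave -0.37 and -0.44. The call was lost without the LGR5-high library of pig 95R (adjusted p = 0.0727) and with library size only (log2 fold change -0.18, adjusted p = 0.129). In the RefSeq annotation GLT8D2 overlaps TDG, and the strand setting of the counting is not given in the sources used here. GLT8D2 had 438 and 508 counts in LGR5-high against 36 and 56 in LGR5-negative, the opposite direction to TDG. The annotated neighbours that overlap TET1, TET3 and UHRF1 had between 0 and 46 counts in any library.

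**Figure D3:**
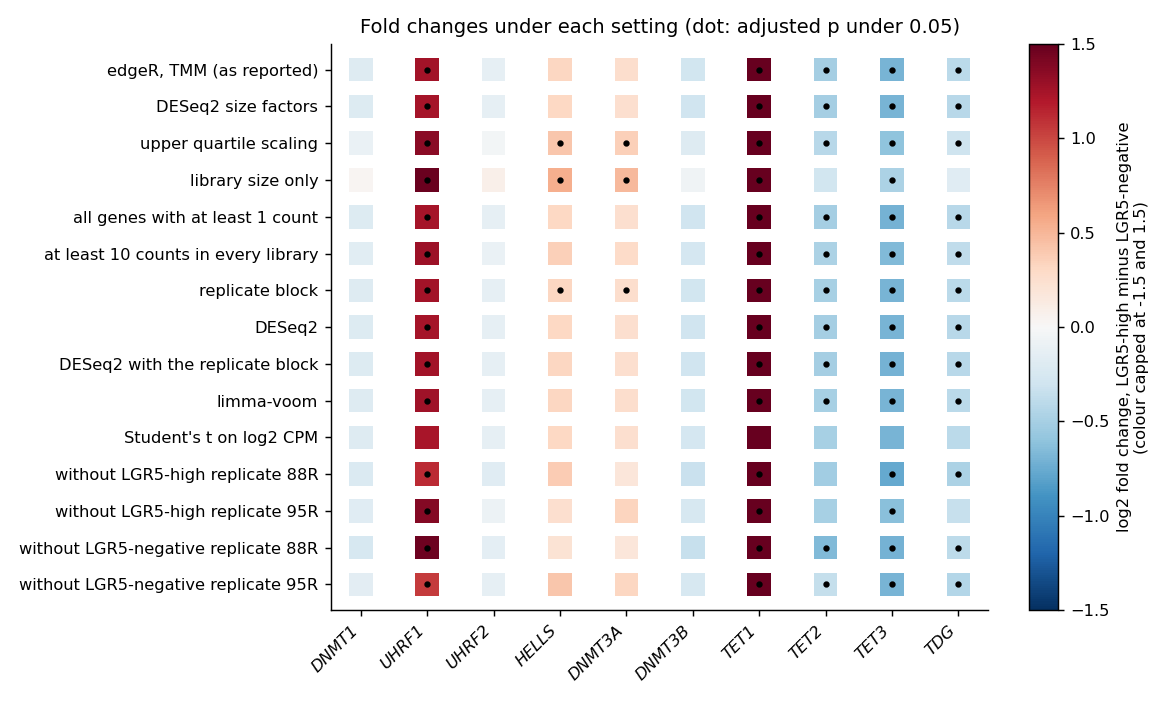
Colour shows the log2 fold change, LGR5-high minus LGR5-negative, of each gene (columns) under each setting (rows), capped at -1.5 and 1.5, and a dot marks an adjusted p under 0.05. UHRF1 and TET1 were higher and TET3 lower throughout, and DNMT1 and UHRF2 changed sign with library size only.

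UHRF1, DNMT1 and HELLS are transcribed mostly in dividing cells, so genes of the cell cycle were set beside the 10 genes. For comparison, 22.7% of all tested genes were called higher in LGR5-high and 22.0% lower. With the replicate block these shares were 28.5% and 27.2%. Of 28 DNA replication genes, 8 were higher and 1 was lower in LGR5-high, with a median log2 fold change of 0.24, and the higher genes fell to 2 without the LGR5-high library of pig 88R and to 5 without that of pig 95R. The higher genes were led by the origin licensing genes CDC6 (log2 fold change 1.26) and ORC1 (0.92) and the polymerase gene POLE (0.77). RRM2, a subunit of the enzyme that makes deoxyribonucleotides, was lower (-1.30). Of 19 mitosis genes, 10 were higher and 0 lower, with a median of 0.97, and with the replicate block 17 were higher. The count of higher mitosis genes in edgeR fell to 0 without the LGR5-high library of pig 88R, was 5 without either library of pig 95R, and rose to 16 without the LGR5-negative library of pig 88R. CCNB2, CENPF and AURKB had log2 fold changes of 1.36, 1.30 and 1.20. The calls of CDC6, ORC1, POLE, CCNB2, CENPF and AURKB were lost without the LGR5-high library of pig 88R. The mitosis list summed to 1023 CPM (88R) and 739 CPM (95R) in LGR5-high, and to 587 and 368 CPM in LGR5-negative, so that pig 88R was the higher animal in both populations. MKI67, the proliferation marker, had a log2 fold change of 1.06 and was called higher with the block but not without it (edgeR quasi-likelihood adjusted p = 0.0504 without it and 1.61e-07 with it). PCNA, the replication clamp that binds DNMT1, had -0.25 and was called lower with the block in edgeR (adjusted p = 0.0244) but not without it (0.0893) or in DESeq2 with the block (0.113).

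Read within each library, UHRF1 stayed higher against both lists. There were 81.5 and 70.7 UHRF1 counts per 1000 counts of the replication list in LGR5-high, and 38.5 and 28.9 in LGR5-negative, a mean difference of 1.19 ± 0.148 log2 units. Per 1000 counts of the mitosis list, UHRF1 had 83.0 and 97.7 in LGR5-high, and 64.1 and 76.7 in LGR5-negative, a smaller difference of 0.36 ± 0.0169. The difference in UHRF1 was thus nearer to that of the mitosis sum than to that of the replication sum. Such sums are weighted by their most abundant genes. The replication sum includes RRM2, with 1872 and 1444 counts in LGR5-high against 3318 and 3790 in LGR5-negative, opposite to the list median. The ratio without RRM2 was not computed. DNMT1 had 92.1 and 92.6 counts per 1000 of the replication list in LGR5-high, and 108 and 115 in LGR5-negative, and against the mitosis list it was lower by a mean of -1.10 ± 0.224 log2 units. HELLS was higher against the replication list (0.24 ± 0.0202) and lower against the mitosis list (-0.58 ± 0.186). TET1 was higher against both, by 2.36 ± 0.353 and 1.54 ± 0.518 log2 units, and TET3 was lower against both, by -0.78 ± 0.0771 and -1.60 ± 0.242. What part dividing cells have in these differences was not tested.

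**Figure D4:**
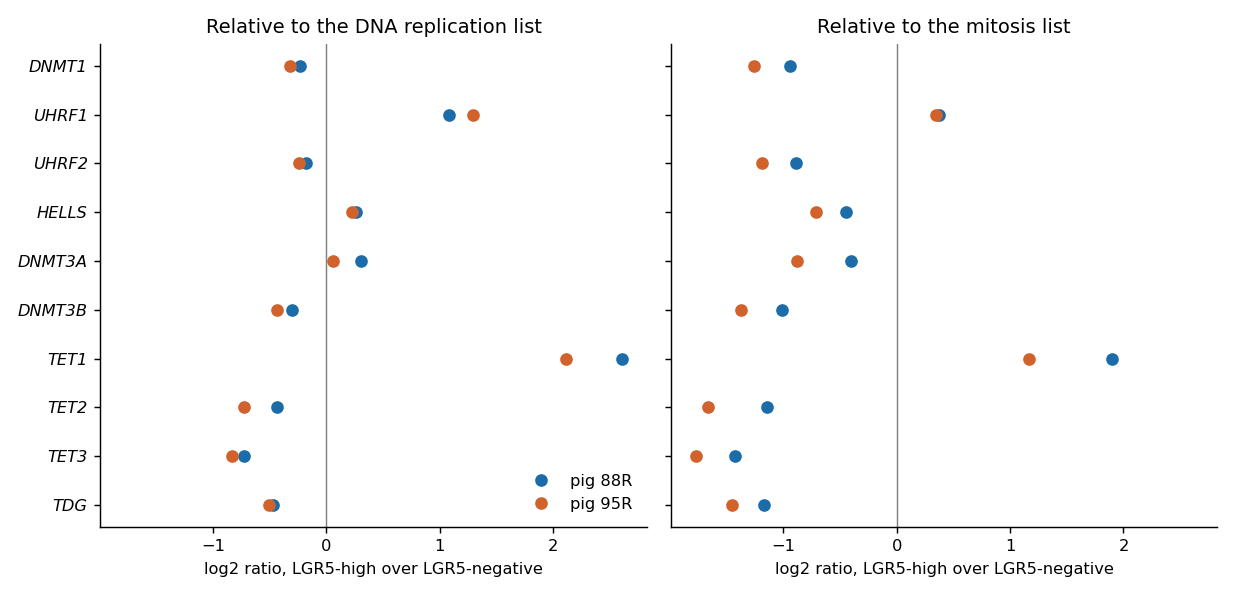
Log2 ratio, LGR5-high over LGR5-negative, of each gene's counts to the summed counts of the DNA replication list (left) and the mitosis list (right) in the same library, with 1 point for each pig. UHRF1 and TET1 are above 0 in both pigs against either list. TET2, TET3, TDG, DNMT1, DNMT3B and UHRF2 are below 0 in both pigs against either list. DNMT3A and HELLS are above 0 against the replication list and below 0 against the mitosis list, whose own sum was higher in LGR5-high.

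The wider pathway was covered by 8 lists with 111 tested genes, replication and mitosis included, of which 30 were higher and 13 lower. Over all tested genes the shares were 22.7% higher and 22.0% lower. The counts of each list are to be read beside these shares, and no list was tested as a set. Among 7 readers of methylated DNA, 3 were lower (ZBTB38 with a log2 fold change of -0.71, ZBTB33 with -0.62 and MBD3 with -0.31) and 0 were higher in edgeR's quasi-likelihood test. Of 15 partners that target or assist methylation, 13 were tested, 2 were higher and 5 lower. CDCA7, which activates HELLS, was higher (0.44), as was the histone methyltransferase gene EHMT2 (0.40). ZFP57, which guards imprinted regions, had -1.29, NSD1 had -0.43 and SETDB1 had -0.35, all lower. SETDB1 and MBD3 were called neither with upper quartile scaling nor with library size only, and NSD1 and ZBTB33 were not called with library size only. DNMT3L, the inactive partner of the de novo enzymes, had at most 3 counts in any library and DPPA3 had 0, so that neither was measurable.

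Repair genes that act after TET and TDG were tested in 15 of 16 cases. Of these, 3 were higher and 2 lower, with a median of 0.34, where 22.7% and 22.0% of all tested genes were called in those directions. MBD4, a glycosylase for mismatched thymine, was higher with 0.88, APEX1, which cuts abasic sites, with 0.84, and PARP1 with 0.68. In counts, MBD4 had 397 and 419 in LGR5-high against 196 and 190 in LGR5-negative, whereas TDG went down. GADD45A (-0.50) and OGT (-0.47), a TET-binding glycosyltransferase gene, were lower. The GADD45A call was lost with upper quartile scaling and with library size only.

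The genes for S-adenosylmethionine, the methyl donor of the DNMTs, showed the widest changes around the 10 genes. Of 13 tested, 5 were higher and 2 lower, beside 22.7% and 22.0% of all tested genes. MAT1A, the adult liver form of the synthetase, had 592 and 541 counts in LGR5-high and 13 and 14 in LGR5-negative (log2 fold change 5.18, edgeR quasi-likelihood adjusted p = 6.62e-05). MAT2A, the form of most other tissues, was lower, with 64.4 and 73.3 CPM in LGR5-high and 213 and 201 CPM in LGR5-negative (log2 fold change -1.59). GNMT, which consumes the methyl donor, was higher (4.97), and BHMT was called higher from 24 and 25 counts against 3 and 3. AHCYL1 was lower (-0.42), but was not called with library size only. For 2-oxoglutarate, the cosubstrate of the TETs, 1 of 11 genes was higher and 0 lower in the same test. This was IDH1, with 125 and 119 CPM in LGR5-high and 65.1 and 64.1 CPM in LGR5-negative (log2 fold change 0.92).

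Germline genes that promoter methylation is known to silence in somatic tissue ranged from no counts to clear counts in both populations. Of 12 genes on the list, 11 had a row, and 5 of them had 3 counts or fewer in every library. TDRD1 had 157 to 179 counts and SYCE1 81 to 134, and neither was called. Of the 5 that could be tested, TEX15 was called higher from 14 and 14 counts in LGR5-high against 0 and 1, and the call was lost when either LGR5-high library was left out. STK31 and DDX4 had log2 fold changes of 0.97 and 1.41 and were called higher with the block in edgeR but not without it, while DESeq2 with the block called 0 genes of this list higher. Methylation itself was not measured in these samples.

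**Figure D5:**
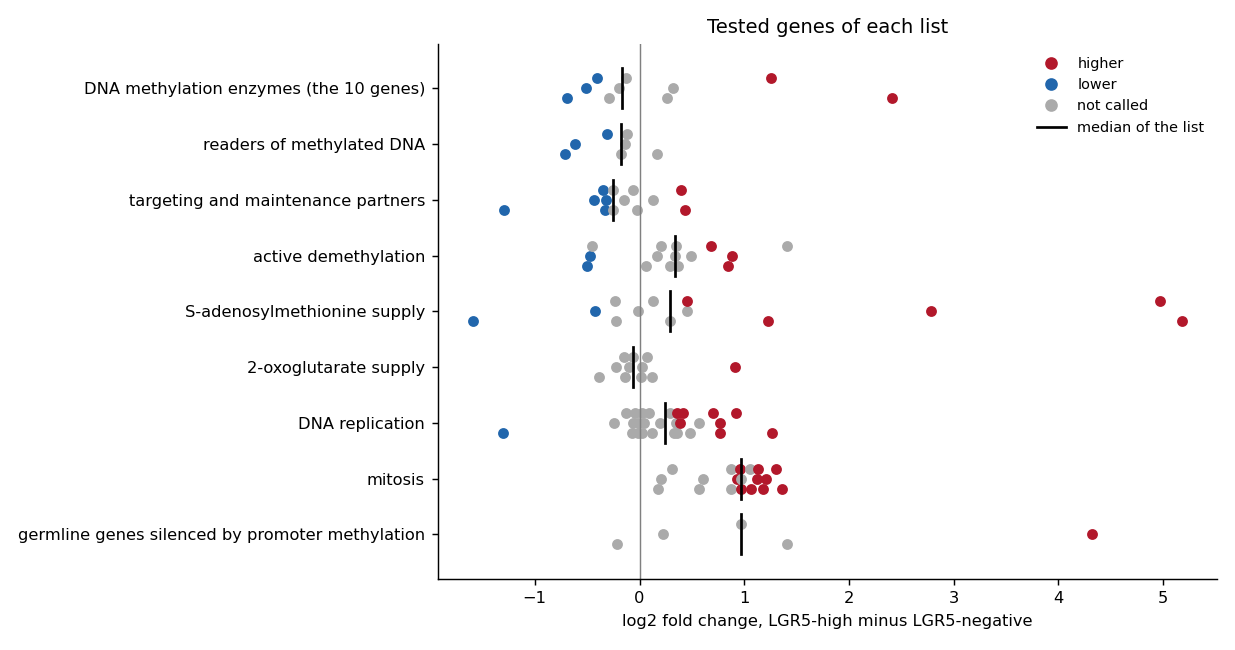
Log2 fold change, LGR5-high minus LGR5-negative, of each tested gene in the 10-gene set and the 8 related lists, coloured by its call, with a black bar at the list median. The mitosis list lies to the right of 0 with a median of 0.97, and the value of TEX15 near 4.32 rests on 0 and 1 counts in LGR5-negative and is no measured fold.

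Of the 27 called genes of these lists that were named by rule, 27 were called with the replicate block, 21 with library size only, and 9 under each of the 13 alternatives other than the unmoderated test on log2 CPM (ZBTB38, APEX1, PARP1, OGT, MAT1A, GNMT, MAT2A, IDH1 and RRM2). Leaving out the LGR5-high library of pig 88R or 95R took the calls of the lists from 30 higher and 13 lower to 10 and 8, or to 16 and 5. Calls over all tested genes also fell, from 3632 higher and 3508 lower to 2340 and 2437, or to 2279 and 2139.

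Genes used as markers of other cell types also differed between the populations. Their called counts are to be read beside the shares over all tested genes, 22.7% higher and 22.0% lower. No marker list was tested as a set. Of 4 tested immune markers, 4 were lower in LGR5-high, and their sum was 6.21 to 8.06 CPM there and 88.8 to 130 CPM in LGR5-negative. Of 6 melanocyte markers, 4 were lower, with a sum of 61.9 CPM in both LGR5-high libraries and 82.7 to 256 CPM in LGR5-negative. MITF and DCT were not called and made up most of the LGR5-high sums. MITF had 25.25 (88R) and 29.67 CPM (95R) in LGR5-high, against 21.58 and 22.97 CPM, and was called higher with the block. DCT had 25.54 and 24.03 CPM in LGR5-high, against 21.34 and 77.83 CPM, and was called lower with the block. Endothelial markers summed to 4.71 to 6.63 and 17.1 to 18.6 CPM, with 3 of 4 lower. Smooth muscle genes were higher in 3 of 3 cases, with sums of 287 to 398 CPM in LGR5-high and 14.3 to 14.7 CPM in LGR5-negative, although DES was at 0 to 2 counts. TAGLN alone made up most of the LGR5-high sums, with 389 CPM (88R) and 277 CPM (95R). ACTA2 had 3.90 and 4.30 CPM in LGR5-high, and MYH11 had 5.18 and 5.51 CPM. Fibroblast genes were divided, with 2 higher and 4 lower. Nerve and Schwann genes gave 1 higher and 1 lower of 3, and the erythroid genes had at most 8 counts. CD3E, a T cell marker, was at 0 in both LGR5-high libraries. Which cells these transcripts came from was not tested, nor was the part of other cell types in the differences of the 10 genes.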

How the data were processed

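Poly(A) RNA of sorted LGR5-high and LGR5-negative epidermal cells of 2 juvenile pigs was read as paired ends. Counts deposited by the authors are raw, per gene symbol and without normalization. The submitters' processing notes name Trimmomatic 0.36, STAR 2.5.2b, featureCounts and Subread 1.5.2. The genome build, annotation and strand setting are not given in the sources used here. A single unnamed entry, with 0.360% to 0.626% of each library's counts, was excluded. All 29837 named genes matched a RefSeq symbol of Sscrofa11.1, used for names and neighbours only, and no sequence was used here.

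Testing used edgeR 4.0.16 under R 4.3.3. Low genes were removed by filterByExpr (minimum count 10, minimum total 15), libraries were scaled by TMM (factors 0.919 to 1.08), and a 2-sided quasi-likelihood test of LGR5-high against LGR5-negative, with no other covariate, was adjusted by Benjamini-Hochberg over all tested genes and called at 0.05. Log2 fold changes of single pigs used a prior count of 2. The pig pairs the libraries, since each gave both populations (the animal number is in the titles). Departures from each population's mean correlated at 0.370 between libraries of 1 animal across 15980 genes, and a fit with the pig as replicate block was an alternative. The other alternatives were the scalings and filters, DESeq2 1.42.0 with and without the block, limma-voom (limma 3.58.1), Student's t on log2 CPM with a pseudocount of 1 (the unmoderated test, nearest to the study's own), and leaving out each library. The scripts were tested on simulated data. Plots used matplotlib 3.10.9.

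Counting intervals were not used, and the floor of 3 counts reflects counting error alone, because amplified reads do not each stand for a molecule. The named genes are the 10 members, up to 3 called genes in each direction of each related list by log2 fold change, and LGR5, SOX9, MKI67, PCNA and MCM2. SOX9 had a log2 fold change of 4.41 and MCM2 of 0.04. KRT1, KRT5, KRT10, TP63, DNMT3L, DPPA3, STK31, TDRD1, SYCE1, DDX4, CD3E, GLT8D2, DES, TAGLN, ACTA2, MYH11, MITF and DCT were named after their values were seen. Members and lists were chosen with earlier results of these data known.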

Additional observations from a re-analysis of the deposited data

How the results depend on the processing

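Among the 10 genes, TET1, UHRF1 and TET3 kept their direction and call in 13 of 14 alternatives. Student's t on log2 CPM called 0 of the 10 genes higher and 0 lower, against 2 and 3 with edgeR, and 5 and 2 genes of the related lists against 30 and 13, when over all 15980 tested genes it called 544 and 502. Upper quartile scaling called 4 of the 10 genes higher, and 8 genes of the related lists lower. Over all tested genes it called 4292 higher and 2929 lower, against 3632 and 3508 with TMM. Library size only called 4 higher and 1 lower, with 55 and 5 in the related lists, and 5473 and 2326 over all tested genes. It turned the log2 fold changes of DNMT1 to 0.026 and of UHRF2 to 0.0905. With the replicate block 4 of the 10 genes and 50 of the related genes were higher, while 4562 of all tested genes were higher and 4342 lower. Among the 10 the block changed no call other than those of DNMT3A and HELLS, which DESeq2 with the block did not call. Leaving out each library in turn gave 1 to 3 lower genes among the 10 (1 without the LGR5-high library of pig 95R), 10 to 35 higher and 5 to 10 lower genes in the related lists, and MCM2 a log2 fold change from 0.0957 down to -0.03, the last without the LGR5-negative library of pig 95R. When 1 library was left out, the lone library was assumed to vary like the other population. The cause of these shifts was not tested. The lowest counts among the 10 genes were those of TET1 and DNMT3B.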
